A study of Homo sapiens with 34 samples.

Results

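The genes described here encode the proteins of the cytosolic ribosome. Members were the gene symbols of the count tables built as RPL or RPS with a number, with or without a closing A, X or L, plus RPLP0, RPLP1, RPLP2 and RPSA, provided that the mean of at least 1 of the 12 groups of libraries reached 1 CPM (counts scaled to a library total of 1e6). Of 23368 gene symbols, 85 had such a name and 82 passed the level. They comprised 51 large subunit genes (RPL and RPLP) and 31 small subunit genes (RPS and RPSA). RPL10L stayed below the level with a highest group mean of 0.433 CPM. The members just above it were RPL21, with a highest group mean of 1.59 CPM (NALM6 etoposide), and RPL3L, with 3.76 CPM (697 etoposide). RPL3L reached 1 CPM in no other group.

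Sequenced RNA came from 6 established human lines of blood cancers: the pre-B leukaemia lines NALM6 and 697, the mature B line RAMOS, the T line JURKAT, and the myeloid lines THP1 and U937. Each line was either left untreated (control) or exposed for 4 hours to 10 µM etoposide, a topoisomerase II poison that causes DNA breaks. Each group had 3 libraries, except the 697 etoposide group and the U937 control group with 2 each. All lines grew in the same serum-containing RPMI medium, and each cell type is represented by 1 or 2 established lines.

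Ribosomal proteins are made in near equal amounts and assembled on ribosomal RNA in the nucleolus, and their mRNAs are among the most abundant of a growing cell. Most of these mRNAs begin with a 5′ terminal oligopyrimidine (TOP) tract, a C followed by an unbroken run of C and T in the DNA, through which the mTOR kinase and the protein LARP1 control their translation and stability. Some members also act outside the ribosome: RPL5 and RPL11 bind MDM2 and thereby stabilise p53, and RPS27L, a paralog of RPS27, is a known p53 target. Such DNA damage functions are background and were not measured here.

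The first bases of the transcript set most members apart from other genes and are shown for the paralog pairs and the members that the comparisons below turn on. The windows are from RefSeq (GRCh38.p14) and run from 12 bases before the annotated start to 18 bases from it, 5′ to 3′ in the direction of the gene. Capitals mark a TOP tract, taken as an unbroken run of at least 5 C or T that opens with a C within 5 bases of the start. The count tables rest on another build, hg19, so these positions are those of RefSeq. RPS27 lies at chr1:153990750-153990779 on the plus strand and RPS27L at chr15:63157460-63157489 on the minus strand. RPL22 lies at chr1:6199578-6199607 on the minus strand and RPL22L1 at chr3:170870178-170870207 on the minus strand. RPL39 lies at chrX:119791613-119791642 on the minus strand, RPL10A at chr6:35468389-35468418 on the plus strand, RPL7L1 at chr6:42879604-42879633 on the plus strand and RPS26 at chr12:56041906-56041935 on the plus strand.
RPS27: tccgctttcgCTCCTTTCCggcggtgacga
RPS27L: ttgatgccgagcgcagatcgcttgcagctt
RPL22: ttcgctcaCCTCCCTTTCTaactccgctgc
RPL22L1: ggccgtagCTTCCTCTCTgctctcgcggcc
RPL39: ttccgccagCTTCCCTCCTCTTCCTTTCTC
RPL10A: gcaagacatgctagtCTCTTTTCCggttag
RPL7L1: aagtgcggcgccgtagctaggagcggacgc
RPS26: acacataacctcgattttcttccgccatcc

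RefSeq windows matched 66 of the 82 members, and 53 of these 66 (80.3%) held a tract at the annotated start, against 6447 of 27305 genes with a window (23.6%). The 13 without one were RPL15, RPL17, RPL26L1, RPL27, RPL4, RPL6, RPL7L1, RPL9, RPS15, RPS26, RPS27L, RPS29 and RPS4X. RPS27 opens with a tract and its paralog RPS27L does not, whereas both RPL22 and RPL22L1 hold one. A match describes these letters only, since the start used in these cells was not measured.

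Total counts per library ran from 8.18 to 37.1 M (M, 1e6 counts). An identifier in the deposited file names, whose meaning the labels do not give, takes 4 values. All NALM6 and 697 controls share 1 value and all their etoposide libraries share another, so treatment and identifier cannot be told apart in the pre-B lines, whereas the libraries of each other line share 1 value. The number of genes with a count also differed between the groups of these lines: 13917 to 14978 in the NALM6 controls and 15908 to 16132 after etoposide, and 14355 to 14738 against 16408 to 17097 in 697. It was also higher without overlap in U937 (15558 to 15857 and 15926 to 16301), whose libraries share 1 identifier, and overlapped between groups in RAMOS (14114 to 15663 and 15078 to 15785), JURKAT (16531 to 17182 and 17061 to 17507) and THP1 (16599 to 16756 and 16623 to 16913). Markers fitted the labelled cell types, with all 7 pre-B genes above 1 CPM in NALM6 and 697, all 6 mature B genes in RAMOS, all 7 T cell genes in JURKAT and all 8 myeloid genes in THP1 and U937. The mean summed level of the pre-B markers was 3844 CPM in NALM6 controls and 1468 after etoposide, and 3952 and 1369 in 697, and that of the mature B markers was 2438 and 1609 in RAMOS. The part of these shifts in the results was not tested. No label says whether the replicates of a group were separate cultures, so a p-value here speaks of the spread among these libraries, perhaps a technical one.

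The members took a large part of every untreated library. Their share of all counts was 7.85% ± 0.0562 (SD, n = 3) in 697, 6.20% ± 0.146 (SD, n = 3) in NALM6, 4.84% ± 0.0510 (SD, n = 3) in RAMOS, 4.29% ± 0.0456 (SD, n = 3) in THP1, 4.17% ± 0.0228 (SD, n = 2) in U937 and 3.94% ± 0.0921 (SD, n = 3) in JURKAT. The order of 697, NALM6 and RAMOS above the others held for every library. On a scaling shared by all lines (TMM) U937 stood just above THP1, at 45225 against 44888 summed CPM, so the order of the myeloid lines turned with the scaling. Per kilobase of coding sequence, the stalk gene RPLP1 had the highest untreated level in 4 lines, at 5562 ± 315 CPM per kilobase in NALM6, 6687 ± 281 in 697, 4166 ± 77.0 in RAMOS and 4659 ± 108 in U937. RPL37A led in JURKAT with 2873 ± 112 and RPL30 in THP1 with 3619 ± 99.6 CPM per kilobase. The number of members at 100 CPM or more was 67 to 70 in each line.

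The 2 pairs of lines whose controls share an identifier could be compared directly. Of the members, 72 were lower in untreated NALM6 than in 697 (28.5% of all genes) and 3 were higher (28.5%), by the edgeR test with an adjusted p under 0.05, and the median difference was -0.43 on the log2 scale. RPL30 and RPL7, both of the large subunit, had among the lowest values at -1.09 each. RPL22L1 stood out in the other direction, 1.80 higher in NALM6. In untreated THP1 against U937, 28 members were higher (38.1% of all genes) and 35 lower (33.3%). RPS25 was 1.07 and RPL5 was 0.87 higher in THP1, whereas RPL10 differed by -1.17 and RPS4X by -0.85.

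After etoposide the members rose together in RAMOS and in 697, went both ways in NALM6, and went both ways in U937, while 6 or fewer passed the test in JURKAT and in THP1. In RAMOS, 73 of the 81 members tested rose (34.2% of all 12240 genes tested) and none fell (35.5% of all genes). In the 697 line, 67 of 81 rose (39.4%) and 1 fell (36.9%), and in NALM6, 46 of 81 rose (41.3%) and 18 fell (40.3%). In JURKAT, none of 81 rose (6.71%) and 6 fell (6.27%), and in THP1, 1 rose (14%) and 3 fell (17.0%). In U937, 11 of 81 rose (22.1%) and 21 fell (22.1%). A gene was said to rise or fall when the edgeR quasi-likelihood test gave an adjusted p under 0.05 over all genes of that line, and the percentages are the share of all tested genes called in that direction. RPL3L was tested in 697 alone and RPS18 in every line but 697, because of the filter on low counts. RPL3L, a member through its treated 697 libraries alone, is among those that rose in 697. At an unadjusted p under 0.05 the edgeR test gave 1 member higher and 27 lower in JURKAT and 0 lower in RAMOS. DESeq2, at an adjusted p under 0.05, called 0 members higher and 6 lower in JURKAT, and 74 higher and 0 lower in RAMOS. In both pre-B lines the identifier in the file names changes together with the treatment.

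The changes were small where they were most uniform. The median log2 fold change of the members was 0.54 in 697, 0.24 in RAMOS and 0.20 in NALM6, against 0.05, -0.00 and 0.01 for all genes. It was -0.11 in JURKAT, -0.00 in THP1 and -0.03 in U937. The quartiles of the RAMOS values were 0.19 and 0.31, and no member there rose 2-fold, while 6.81% of all genes did. The treated libraries lay above every control for 69 members in 697 (43.1% of all genes), 45 in NALM6 (41.5%), 17 in U937 (31.7%), 1 in THP1 (19.9%) and none in JURKAT (15%). They lay below every control for 2 members in 697 (40.4%), 19 in NALM6 (40.2%), 26 in U937 (31.2%), 6 in THP1 (21.8%), 25 in JURKAT (15.2%) and none in RAMOS (36.1%). At least 2-fold rises were seen for 9 members in 697, RPL3L among them (22.9% of all genes), and for 7 in NALM6 (20.5%).

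**Figure D1:**
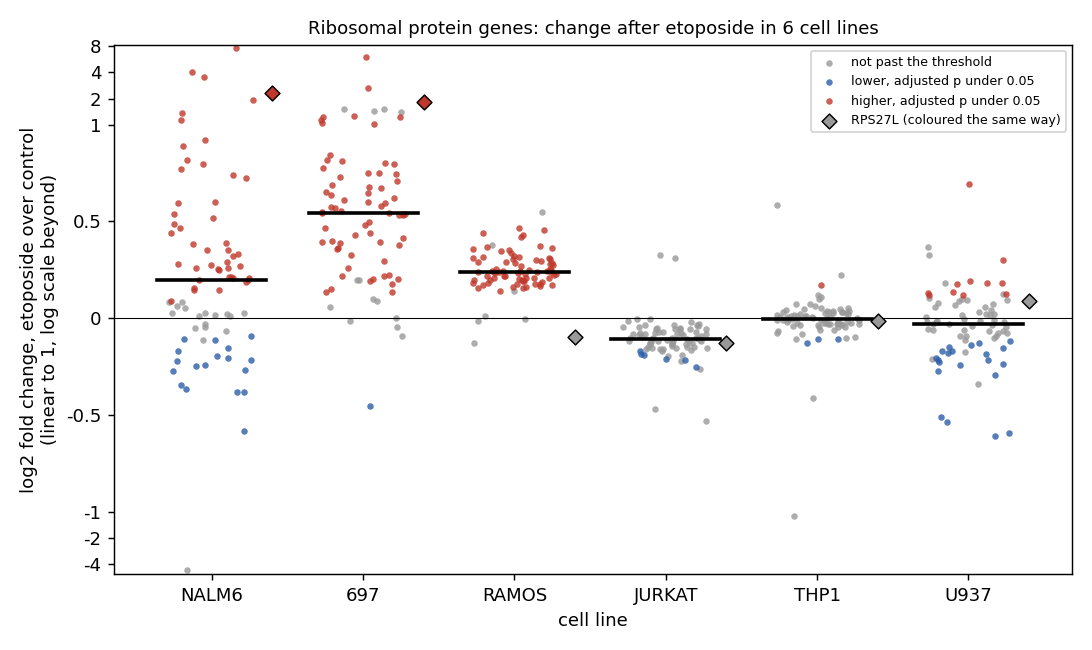
Log2 fold change (etoposide minus control) of each member tested in each cell line, on an axis that is linear up to 1 and logarithmic beyond. Each point is a gene, red where it rose, blue where it fell and grey where it did not pass the edgeR test, bars are medians, and diamonds mark RPS27L. The RAMOS points sit in a narrow band above 0, those of 697 spread higher, and those of NALM6 and U937 lie on both sides of 0.

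By subunit, 45 of 50 large subunit and 28 of 31 small subunit genes rose in RAMOS, and 39 of 51 and 28 of 30 rose in 697. In JURKAT 3 of each subunit fell. In NALM6, 26 of 50 large subunit genes rose and 15 fell, against 20 and 3 of 31 of the small subunit. In U937, 8 of 50 large subunit genes rose and 10 fell, against 3 and 11 of 31. The difference between the subunits was not tested.

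Across lines, 39 members rose in NALM6, 697 and RAMOS (15.2% of all genes tested in these lines), and 63 rose in 697 and RAMOS (18%). The 4 members RPL10A, RPS24, RPS25 and RPS27 rose in these 3 lines and in U937 (5.93%). The 697 call of RPS27 was lost with a replicate block and with no filter on low counts, as given below. In contrast 12 members fell in NALM6 and rose in 697 and RAMOS (0.844%), among them RPL3, RPL7, RPL22 and RPS6, a small subunit protein phosphorylated by S6 kinase. With offsets for coding G+C content, RPL7 and RPL22 turned to 0.13 and 0.03 on the log2 scale in NALM6. Of the members, 20 rose in RAMOS and fell in U937 (4.35%). RPL7L1, a paralog of RPL7, was the only member that fell in some line (NALM6 and 697) and rose in none, and RPL39L and RPS18 passed the test in no line.

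The summed level of the members gives the share of sequenced mRNA devoted to ribosomal proteins. Fewer cells of a kind and less RNA per cell cannot be told apart in such bulk libraries, and a share can also move when other transcripts change. In 697 it went from 7.85% ± 0.0562 (SD, n = 3) to 11.7% ± 0.260 (SD, n = 2) of all counts, a change of 49.2%. It went from 6.20% ± 0.146 to 7.57% ± 0.162 (SD, n = 3 each) in NALM6, a change of 22.1%, and from 4.84% ± 0.0510 to 5.82% ± 0.253 (SD, n = 3 each) in RAMOS, a change of 20.3%. Groups did not overlap in any of these 3 lines, and the exact two-sided permutation test over libraries gave p = 0.1 in each, the smallest it can give here. With TMM-scaled library sizes the changes were 39.8% in 697, 10.5% in NALM6 and 18.6% in RAMOS, so the NALM6 value was the most dependent on scaling.

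In the other 3 lines the summed level changed by less than 5%. JURKAT went from 3.94% ± 0.0921 to 3.75% ± 0.0917 of counts (SD, n = 3 each; exact permutation p = 0.2). THP1 went from 4.29% ± 0.0456 to 4.46% ± 0.0139 (SD, n = 3 each; exact permutation p = 0.1), and U937 from 4.17% ± 0.0228 (SD, n = 2) to 4.23% ± 0.142 (SD, n = 3; exact permutation p = 0.6). The direction in THP1 and in U937 turned with the scaling, to -0.490% and -3.04% with TMM-scaled sizes.

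**Figure D2:**
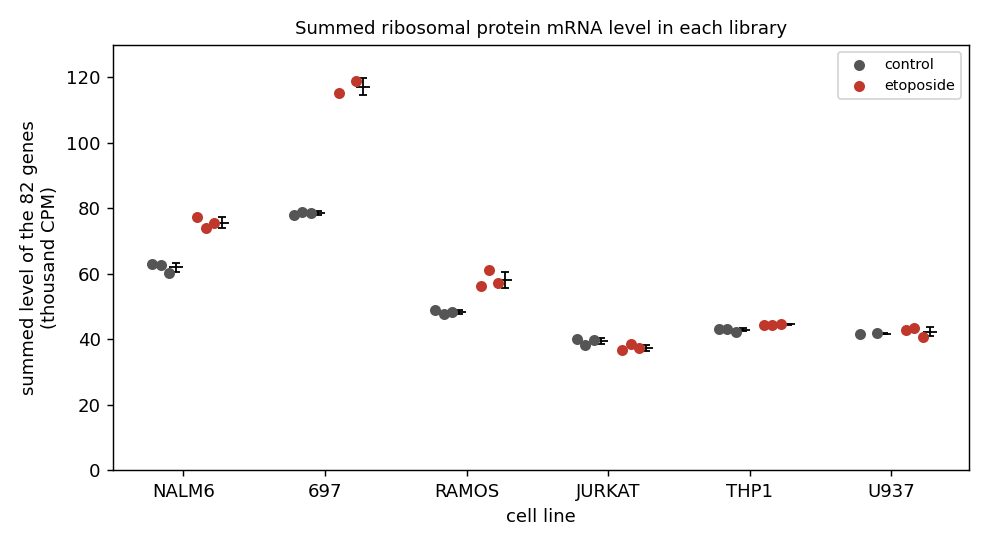
Summed CPM of the 82 members (in units of 1000) for every library, scaled by plain library totals, with the group mean and SD, for control and etoposide in each of the 6 lines. The etoposide libraries lie above all controls in NALM6, 697, RAMOS and THP1, and the step is largest in 697.

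RAMOS showed the most uniform rise, and members of both subunits took part. RPS27A, which encodes a ubiquitin fused to a small subunit protein, was at 430.0, 418 and 461 CPM in the controls and at 565, 645 and 592 CPM after etoposide. The lowest treated library lay above the highest control, and the gene rose (log2 fold change 0.46 ± 0.043 SE, adjusted p = 1.34e-13). RPL39 was at 64.3, 69.1 and 76.0 CPM in the RAMOS controls and at 92.3, 102 and 98.8 CPM after etoposide. This short basic protein lines the exit tunnel. Its gene had the largest rise in the line among the members that passed the test (log2 fold change 0.47 ± 0.054 SE, adjusted p = 1.24e-10). RPL10A was at 509, 525 and 529 CPM in the RAMOS controls and at 690.2, 724 and 695 CPM after etoposide. All its treated libraries were again above the controls (log2 fold change 0.43 ± 0.038 SE, adjusted p = 2.80e-14). RPS20, a protein of the small subunit head, went from 398 ± 14.5 to 539.7 ± 22.8 CPM (SD, n = 3 each; log2 fold change 0.44, adjusted p = 5.42e-14). RPL13A and RPS3A, which also act or bind outside the ribosome, rose by 0.42 and 0.37 on the log2 scale.

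The stalk recruits elongation factors and consists of RPLP0, RPLP1 and RPLP2. In RAMOS RPLP0 went from 1447 ± 11.6 to 1789.8 ± 145 CPM (SD, n = 3 each; log2 fold change 0.31, adjusted p = 1.36e-08). RPLP1 and RPLP2 rose by 0.29 and 0.22 on the same scale. The MDM2-binding proteins RPL5 and RPL11 rose by 0.16 (adjusted p = 2.25e-04) and 0.24, and RPSA, also known as a laminin receptor, by 0.18. The 8 members that did not pass the test were RPL21, RPL26L1, RPL39L, RPL41, RPL7L1, RPS18, RPS26 and RPS27L. The treated libraries lay above every control for 73 members, against 35.0% of all genes. Of the members with a tract at the annotated start, 50 rose and 3 did not pass, and of those without, 9 rose and 4 did not.

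In 697 the rise was larger, and the members with short coding sequences tended to rise most. RPS15 was at 156, 189 and 187 CPM in the 697 controls and at 423 and 421 CPM after etoposide. RPL36 was at 497, 509 and 498 CPM in the 697 controls and at 1123 and 1216 CPM after etoposide. Both genes, of the small and the large subunit, were higher in both treated libraries than in any control (log2 fold change 1.25, adjusted p = 9.29e-09, and 1.22, adjusted p = 1.28e-12). RPL28 went from 848, 1000.4 and 1035 to 2086 and 2399.9 CPM (log2 fold change 1.22 ± 0.091 SE, adjusted p = 2.19e-06). RPL11 rose by 0.71, RPLP2 by 0.75 and RPLP1 by 0.42 on the log2 scale. RPL5 and RPLP0, with longer coding sequences, had values of 0.09, adjusted p = 0.10 and 0.06, adjusted p = 0.32. Across the 81 members the log2 fold change in 697 had a Spearman correlation of -0.47 with coding length, against 0.00 over all 11465 genes with a length. In NALM6 it was also -0.47 (all genes 0.12), and in RAMOS -0.14 (all genes -0.13). The points of a line share its libraries, so these are descriptions.

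NALM6 divided the same set. RPLP2 went from 892, 896 and 899 CPM in the controls to 1408, 1313 and 1345 after etoposide (log2 fold change 0.60 ± 0.040 SE, adjusted p = 4.22e-18), with every treated library above the controls. RPL4, a large protein whose loop reaches into the exit tunnel, went from 2040.4, 2107 and 2036 to 1623, 1524 and 1593 CPM (log2 fold change -0.38 ± 0.039 SE, adjusted p = 2.57e-12), with every treated library below. The partners RPL5 and RPL11 moved apart: RPL5 went from 1400.3, 1383 and 1383 to 1147, 1140.3 and 1169.7 CPM (log2 fold change -0.27 ± 0.039 SE, adjusted p = 3.12e-08), while RPL11 rose by 0.27 (adjusted p = 8.69e-08). The stalk also divided, with RPLP1 at 0.21 and RPLP0 at -0.24, both past the test. RPL15, RPL7 and RPL3 fell by 0.34, 0.27 and 0.21 on the log2 scale, and RPSA rose by 0.21. Several of the NALM6 falls were lost once base composition was allowed for. With offsets for coding G+C content, chosen after seeing the data, 59 members rose and 9 fell in NALM6, and RPL5, RPL7, RPL22 and RPL22L1 turned to 0.12, 0.13, 0.03 and 0.06 on the log2 scale. Over all genes with a coding sequence, the NALM6 fold change had a Pearson correlation of 0.28 with coding G+C content (n = 10786), and over the 81 members it was -0.07. The Spearman values were 0.33 and 0.18. Without RPL36A, RPS10, RPL17, RPL21, RPS18 and RPL3L, the Pearson value over the 76 members left was 0.21 and the Spearman value 0.28. The 18 members with at least 55% G+C had a median of 0.26 and the 23 under 47% a median of 0.21. RPL4 and RPL7L1 kept their direction under every alternative. RPL7L1 went from 62.2, 65.0 and 65.9 to 41.6, 45.7 and 41.8 CPM in NALM6 (log2 fold change -0.58 ± 0.068 SE, adjusted p = 1.71e-10). In 697 it went from 62.6, 59.7 and 57.0 to 39.0 and 48.8 CPM (-0.46, adjusted p = 2.76e-04), and in both lines no treated library reached a control.

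RPS27L rose several-fold in NALM6 and in 697 and passed the test in no other line. RPS27L was at 41.3, 44.3 and 39.3 CPM in the NALM6 controls and at 202, 212 and 210.4 CPM after etoposide. That is a fold of 4.96 (log2 fold change 2.31 ± 0.058 SE, adjusted p = 1.61e-34). In 697 it was at 71.6, 72.9 and 76.5 CPM in the controls and at 248 and 282 CPM after etoposide, a fold of 3.59 (log2 fold change 1.84 ± 0.064 SE, adjusted p = 9.33e-14). Replicates within each of these groups were close together, and the groups were far apart. RPS27L was at 35.7, 29.8 and 32.8 CPM in the RAMOS controls and at 31.2, 31.1 and 28.2 CPM after etoposide, and groups overlapped (log2 fold change -0.10, adjusted p = 0.24). In JURKAT it was at 26.6, 26.8 and 28.7 CPM and at 25.8, 25.7 and 23.5 CPM, slightly lower in every treated library (-0.13, adjusted p = 0.41). THP1 libraries lay at 55.5, 54.3 and 56.8 CPM and at 55.4, 56.0 and 53.3 CPM (-0.02, adjusted p = 0.87), and U937 libraries at 71.8 and 69.4 CPM and at 74.0, 78.0 and 73.0 CPM (0.09, adjusted p = 0.26). Tested directly, the effect in the pre-B lines exceeded that in the 4 other lines by 2.09 on the log2 scale. A list of 21 p53 targets (RPS27L not among them), chosen with earlier results of these data known, rose in full in NALM6 (41.3% of all genes) and in 697 (39.4%). In RAMOS 7 of the 20 tested rose (34.2%), near the share of all genes, and 4 fell (35.5%). In JURKAT 9 of 21 rose (6.71%) and none fell (6.27%). In THP1 10 of 21 rose (14%) and 1 fell (17.0%), and in U937 13 of 20 rose (22.1%) and 2 fell (22.1%). Whether p53 acted on RPS27L here was not tested.

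Its parent RPS27 rose in 4 lines. RPS27 was at 359, 323 and 316 CPM in the NALM6 controls and at 755, 757 and 689 CPM after etoposide (log2 fold change 1.14 ± 0.048 SE, adjusted p = 8.08e-25). In 697 it went from 488, 369.8 and 373 to 591 and 722 CPM (0.68, adjusted p = 0.0252). That edgeR call was lost with a replicate block (0.62, adjusted p = 0.16) and with no filter on low counts (0.64, adjusted p = 0.082). Of the 697 controls, control 1, at 488 CPM, lay nearest to the treated libraries. RAMOS had RPS27 at 321, 329 and 335 CPM and then at 371, 409 and 391 CPM (0.25, adjusted p = 3.88e-07). In U937 the value was 0.19, adjusted p = 0.00305, and it was 0.16 without control 1. The coding sequences of the pair are equally long, at 252 bases. Untranslated parts and reads shared with pseudogenes or paralogs were not accounted for, so the shares that follow describe counts only. RPS27L made up 11.1% of the summed pair in NALM6 controls and 22.1% after etoposide, and 15.4% and 28.8% in 697. In RAMOS it made up 9.08% and 7.18%, and in U937 25.3% and 24.0%.

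RPL22L1 and RPL22 encode closely related large subunit proteins, and RPL22 is known for its part in lymphocyte development. RPL22L1 was at 68.8, 63.5 and 56.9 CPM in the 697 controls and at 128 and 128 CPM after etoposide (log2 fold change 1.02 ± 0.074 SE, adjusted p = 2.04e-09). In NALM6 it went the other way, from 262, 232 and 236 to 171, 202 and 185 CPM (log2 fold change -0.38 ± 0.054 SE, adjusted p = 3.70e-08). The treated libraries lay apart from the controls in both lines, and the 2 lines differed in the effect by -1.40 on the log2 scale. In U937 it went from 23.0 and 24.6 to 36.6, 41.0 and 37.6 CPM (log2 fold change 0.69 ± 0.084 SE, adjusted p = 6.45e-08), the largest rise among the members in that line. Its values were 0.23, adjusted p = 5.92e-04 in RAMOS, 0.31, adjusted p = 0.11 in JURKAT and 0.22, adjusted p = 0.12 in THP1. RPL22 itself went from 259, 249 and 255 to 190.3, 209 and 192 CPM in NALM6 (-0.37, adjusted p = 3.10e-09) and from 386, 392 and 396 to 453 and 448 CPM in 697 (0.21, adjusted p = 0.00116). In NALM6 the fall of both genes was absent with offsets for coding G+C content, as given above.

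**Figure D3:**
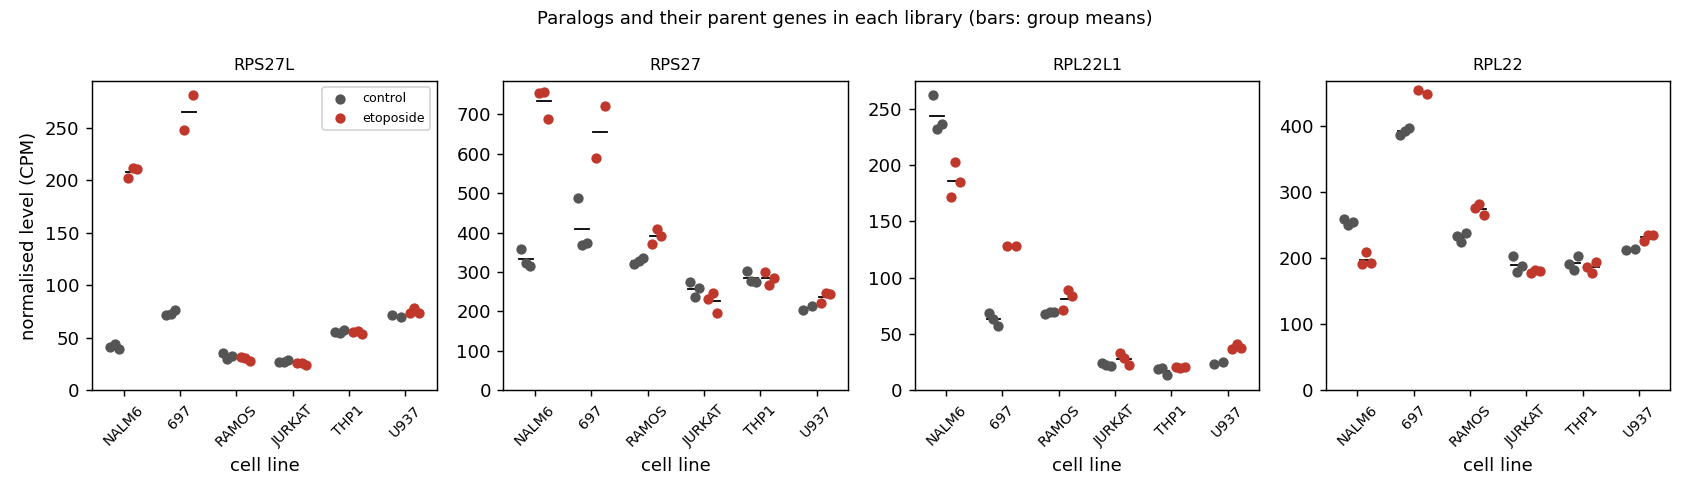
CPM of RPS27L, RPS27, RPL22L1 and RPL22 in every library of the 6 lines, control and etoposide side by side, with bars at the group means. RPS27L separates widely in NALM6 and 697, and RPL22L1 moves down in NALM6 and up in 697.

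The other paralog pairs changed less. RPL26L1 had values of 0.54, adjusted p = 4.10e-04 in 697 and -0.05, adjusted p = 0.67 in NALM6, and its parent RPL26 had 0.75, adjusted p = 2.67e-06 and 0.28, adjusted p = 1.61e-07. RPL39L did not pass the test in any line, while its parent RPL39 rose in RAMOS as given above. RPL3L, best known as the muscle form of RPL3, had 3 reads in the 697 controls and 133 after etoposide. It is a member only through that treated group, so its rise follows from the choice of members and is no separate result. Its level was low even then, at 3.36 and 3.87 CPM, against 0, 0.186 and 0 CPM in the controls. The floor used for RPL21 below covers counting error alone, as reads were amplified without molecular tags. RPL3 in the same line was at 0.13, adjusted p = 0.0293.

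For 4 members the count differed widely between the untreated libraries of 697, and their folds should be read with that in view. RPL36A was at 156, 9.41 and 8.11 CPM in the 3 controls of 697 and at 161 and 173 CPM after etoposide. RPS10 was at 103, 18.3 and 14.2 CPM in the controls and at 137 and 102 CPM after etoposide. RPL17 was at 27.2, 12.4 and 10.9 CPM and then 46.4 and 45.8 CPM, and RPL21 at 1.19, 0 and 0.0443 CPM and then 1.09 and 1.45 CPM. For each of these genes control 1 of 697 lay nearest to the treated libraries, and the other controls were lower. By a smaller step this also held for RPS27, RPS27A and RPL12, at 488, 482 and 928 CPM in control 1. It did not hold for RPS15 and RPL28, given above, whose control 1 was the lowest. In NALM6 all 3 controls were on the low side, at 13.5, 8.20 and 9.88 CPM for RPL36A and 5.74, 11.5 and 7.51 CPM for RPS10. After etoposide RPL36A was at 159, 159 and 150.4 CPM and RPS10 at 111, 109 and 102 CPM (log2 fold change 3.99, adjusted p = 1.82e-25, and 3.56, adjusted p = 2.79e-09). RPL17 in NALM6 went from 11.4, 10.5 and 9.18 to 41.4, 40.0 and 37.9 CPM (1.94, adjusted p = 6.38e-23). RPL21 had no read in the NALM6 controls and 70 after etoposide, at least 28.6-fold higher over a floor of 3 counts for the group.

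The cause of these differences between libraries was not tested. Without RPL36A, RPS10, RPL17 and RPL21, 42 members rose and 18 fell of 77 tested in NALM6, and 67 rose and 1 fell in 697. The summed levels then changed by 21.7% and 49.0%. In JURKAT RPL36A was at 67.7, 63.4 and 65.0 CPM in the controls and at 64.7, 61.1 and 52.7 CPM after etoposide, close together.

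**Figure D4:**
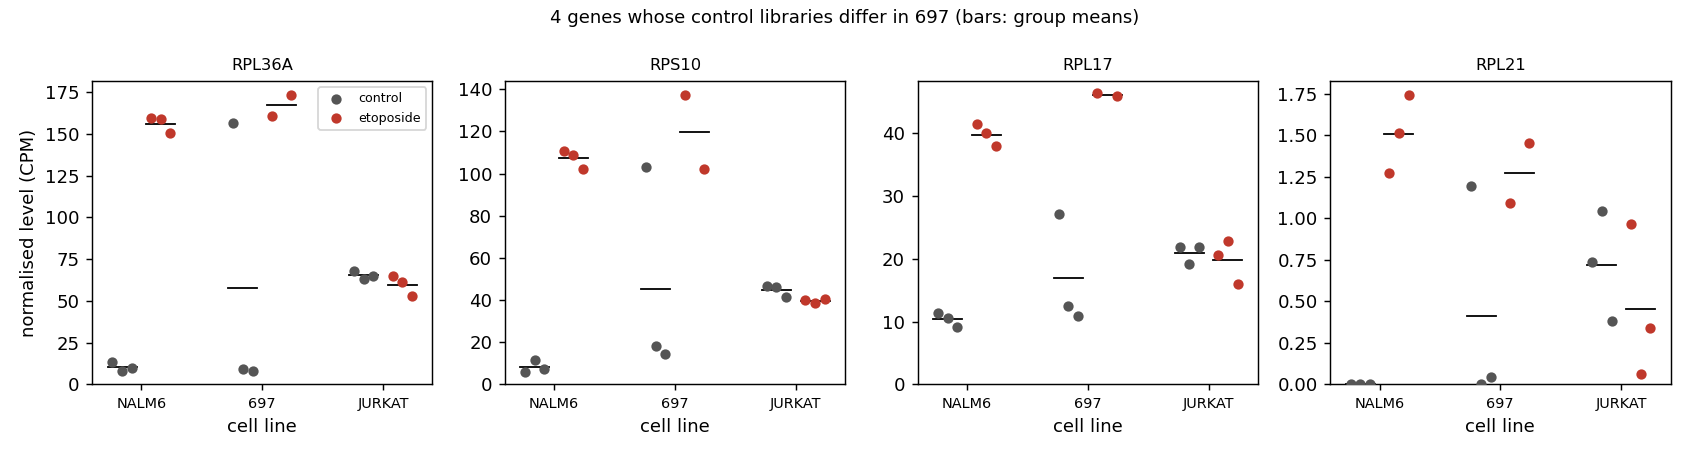
CPM of RPL36A, RPS10, RPL17 and RPL21 in every library of NALM6, 697 and JURKAT. In 697 a lone control lies apart from the other two, at or towards the level of the treated libraries, whereas in JURKAT the groups overlap or lie close for each gene.

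RPS18, a small subunit head protein, gave no usable level. It ranged from 0 to 27.2 CPM over the 34 libraries and was below 1 CPM in 13 of them. In NALM6 it was at 18.4, 17.4 and 0.139 CPM in the controls and at 0.667, 0.545 and 0.218 CPM after etoposide, and in RAMOS at 10.9, 0.0443 and 10.3 CPM in the controls and at 0, 19.7 and 0.137 CPM after etoposide. THP1 had 17.5, 16.9 and 0 CPM in its controls. High and near-zero libraries stand beside each other in the same group, so no fold is given. Its neighbours HSD17B8, RING1, B3GALT4 and PFDN6 were below 1 CPM in all 34 libraries, VPS52 in 32, and WDR46 in 22 with a highest value of 6.19 CPM. RPL41, whose coding sequence of 75 bases is the shortest of the set, went from 5.91 ± 0.563 to 14.8 ± 4.57 CPM in NALM6 (SD, n = 3 each; log2 fold change 1.36 ± 0.17 SE, adjusted p = 2.15e-08) and from 6.26, 7.80 and 5.01 to 24.2 and 54.9 CPM in 697 (2.63, adjusted p = 0.0134).

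In JURKAT, 6 members fell slightly and none rose. RPL7A was at 559, 568 and 545 CPM in the JURKAT controls and at 451, 503 and 485 CPM after etoposide, with no overlap (log2 fold change -0.22 ± 0.052 SE, adjusted p = 0.00752). RPS14, a small subunit protein, went from 446, 443 and 439 to 392, 402 and 374 CPM (log2 fold change -0.18 ± 0.050 SE, adjusted p = 0.0166). RPS3A, RPL37A, RPS21 and RPL23 fell by 0.25, 0.21, 0.19 and 0.17 on the log2 scale, with adjusted p of 0.0149, 0.00991, 0.0142 and 0.0434. The number called was fragile: it was 1 without control 1, without etoposide 1 or without etoposide 3, and 8 without control 2. In THP1 RPL36A rose by 0.17 (adjusted p = 0.0475), and RPL23A and RPS14 fell by 0.13 and 0.11 on the log2 scale. None of these calls was left without control 3.

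In U937 the numbers that rose and fell, given above, lay below and near the shares of all genes. RPS26, RPS29 and RPS10, all of the small subunit, had the strongest falls. RPS26 was at 32.9 and 39.9 CPM in the U937 controls and at 23.6, 26.1 and 21.7 CPM after etoposide (log2 fold change -0.61 ± 0.092 SE, adjusted p = 2.75e-06). RPS29 went from 106 and 120.4 to 75.4, 80.9 and 69.2 CPM (-0.59, adjusted p = 1.20e-08), and RPS10 from 68.9 and 76.1 to 50.6, 50.3 and 49.0 CPM (-0.54, adjusted p = 8.50e-08). In all of them no treated library reached a control. RPS19, the gene most often mutated in Diamond-Blackfan anaemia, went from 1274 and 1295 to 1099, 1094 and 948 CPM (log2 fold change -0.30 ± 0.048 SE, adjusted p = 8.76e-06), and RPS15 and RPL13 were at -0.51, adjusted p = 0.0291, and -0.27, adjusted p = 1.10e-05. Opposite to these, RPL13A went from 175 and 179 to 218, 223 and 213 CPM (log2 fold change 0.30 ± 0.049 SE, adjusted p = 7.43e-06), and RPL9, RPS24 and RPL14 rose by 0.18, 0.18 and 0.17 on the log2 scale. The number that rose was 4 without either control and 18 without etoposide 3.

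In U937 members rich in coding G+C fell more often. Of the 18 members with at least 55% G+C, 1 rose and 11 fell, with a median of -0.21, and of the 23 members under 47%, 5 rose and 2 fell, with a median of 0.02. The Pearson correlation of the log2 fold change with G+C content was -0.46 over the 81 members and -0.24 over 11234 genes. In RAMOS it was 0.05 for the members, where all 18 high G+C genes and 20 of the 23 low G+C genes rose. Each value comes from the same libraries, so the correlations are descriptions. With offsets for coding G+C content 12 members rose and 22 fell in U937, close to the 11 and 21 without them.

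**Figure D5:**
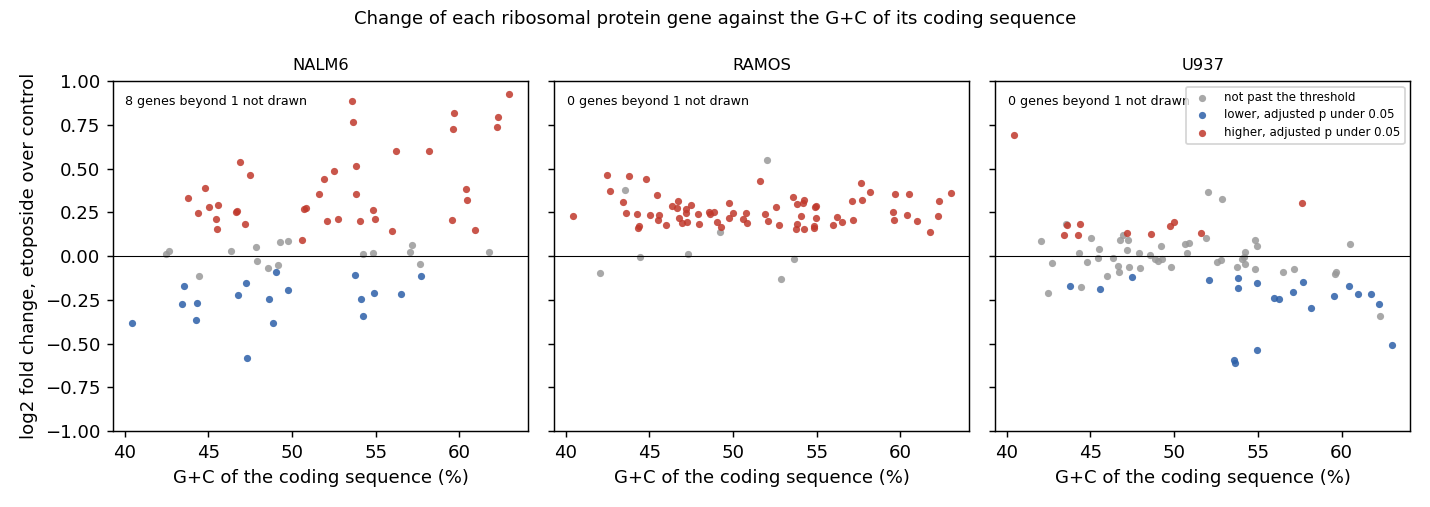
Log2 fold change of each member against the G+C content of its coding sequence in NALM6, RAMOS and U937, with members beyond 1 in size not drawn. In U937 the points fall from left to right, and in RAMOS they form a level band above 0.

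The difference of the etoposide effect between lines was tested in 1 edgeR fit of all 34 libraries. The effect was higher in the pre-B lines than in the 4 other lines for 57 members (30.7% of all genes) and lower for 10 (28.1%), with a median difference of 0.31 where all genes had 0.16. In NALM6 against 697, 5 members had a higher effect (15.1%) and 58 a lower one (16.1%), with a median of -0.33. In RAMOS against JURKAT, 66 were higher (16.9%) and none was lower (18.9%), with a median of 0.34. In THP1 against U937, 5 were higher (5.96%) and 1 lower (7.06%), and in the myeloid lines against RAMOS and JURKAT none was higher (12.4%) and 13 were lower (9.47%). At an unadjusted p under 0.05, 0 members were lower in RAMOS against JURKAT and 1 higher in the myeloid lines. The effect in RAMOS thus lay above that in JURKAT for most members, and none was called higher in JURKAT itself.

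Related genes did not all move with the ribosomal proteins. Of all genes tested, 34.2% rose and 35.5% fell in RAMOS, and 22.1% rose and 22.1% fell in U937. These shares were 41.3% and 40.3% in NALM6, and 39.4% and 36.9% in 697. In RAMOS, 11 of 14 elongation factor and other TOP genes rose and 2 fell, with the elongation factor EEF1A1 at 0.39 and the histone chaperone NAP1L1 at 0.49. Of the same 14 genes, 4 rose and 7 fell in NALM6, 4 rose and 4 fell in 697, and 3 rose and 2 fell in U937. Among 28 initiation factor genes 16 rose and 5 fell in RAMOS, but 5 rose and 21 fell in NALM6, and 4 rose and 17 fell in 697. The 74 mitochondrial ribosomal protein genes, which serve a separate ribosome, had 21 that rose and 23 that fell in RAMOS. In the 697 line, 13 of them rose and 34 fell, and in NALM6, 11 rose and 44 fell. Chaperones and importers of ribosomal proteins mostly fell in the pre-B lines, 12 of 17 in NALM6 and 11 of 17 in 697, against 5 that rose and 4 that fell in RAMOS.

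A further list held 9 host transcripts of small nucleolar RNAs. All 9 rose in NALM6 (41.3% of all genes) and in 697 (39.4%), with median log2 fold changes of 1.33 and 1.53. In U937 8 rose and 1 fell (median 0.34), in THP1 5 rose (median 0.18), in RAMOS 4 rose and 2 fell (median 0.03), and in JURKAT 2 rose (median 0.09). SNHG12 went from 28.3 ± 4.43 to 219 ± 2.65 CPM in NALM6 (SD, n = 3 each; log2 fold change 2.98, adjusted p = 7.36e-35). GAS5 and SNHG1 rose by 0.69 and 1.03 in U937, where the members had a median of -0.03. LARP1, the protein that binds TOP tracts, fell in NALM6, 697, RAMOS and U937, to 0.633, 0.591, 0.499 and 0.698 times its control level. SESN2, an inhibitor of mTOR signalling, rose in all 6 lines, by 3.61 in NALM6 and 0.59 in JURKAT, and DDIT4, another such inhibitor, in all but JURKAT.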

How the data were processed

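Per the submitters' processing notes HISAT, HTSeq, DESeq2 and the build hg19 were used by the authors. Their versions and the use of strand in counting are not given in the sources that were used here, so reads shared with pseudogenes, paralogs or overlapping genes are uncertain. The deposited values are read counts of genes, whole numbers in a separate file for each library. Libraries came from Trizol-extracted RNA and a TruSeq kit, per the labels' protocols. The authors' own comparison tables were not used here.

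From these counts, each line was fitted in R 4.3.3 by edgeR 4.0.16 (limma 3.58.1) with its robust quasi-likelihood test, after filterByExpr with a minimum count of 10 and TMM scaling. All were two-sided. Benjamini-Hochberg adjustment ran over all genes of the line, and calls needed an adjusted p under 0.05. CPM of genes use TMM-scaled library sizes and summed CPM use plain totals. Differences between lines were contrasts in 1 fit of all 34 libraries, whose scaling is shared. Group differences of summed CPM were tested by an exact permutation test over libraries. Coding length and G+C content came from GENCODE v29, matched by symbol. The script was tested on simulated data.

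Members and lists were chosen with earlier results of these data known. Named members were RPS27L, RPS27, RPS18, the stalk genes, RPSA, RPL5, RPL11, the paralog pairs, up to 6 called members at either end in each line, and up to 5 per direction in each contrast. RPS26, RPL36A, RPS10, RPL17 and RPL21 were also singled out after their values were seen. Alternatives were DESeq2 1.42.0, other scalings, no filter, a replicate block, leaving out each library, and coding G+C offsets. Some named genes and a gene list covered by these rules are not reported here.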

Additional observations from a re-analysis of the deposited data

Results flagged for a closer look

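The effect of etoposide differed between lines for many members when the difference itself was tested in the edgeR fit of all libraries (adjusted p under 0.05). Between the pre-B lines and the 4 other lines, 57 members had a higher effect (30.7% of all genes) and 10 a lower one (28.1%). The highest differences on the log2 scale were those of RPL21 (4.95), RPL36A (2.64), RPS10 (2.55), RPS27L (2.09) and RPL41 (1.76), and the lowest those of RPL7L1 (-0.46), RPL4 (-0.29), RPL15 (-0.26), RPLP0 (-0.18) and RPL22 (-0.16). RPL21 had no read in the NALM6 controls, so its fitted differences are no measure of size.

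Between NALM6 and 697, 5 members had a higher effect in NALM6 (15.1% of all genes) and 58 a lower one (16.1%). RPL21 (6.38), RPL36A (2.46), RPS10 (2.15), RPS27 (0.47) and RPS27L (0.47) were higher, and RPS18 (-11.69), RPL22L1 (-1.40), RPL24 (-0.62), RPS24 (-0.59) and RPL26L1 (-0.59) were lower. The values of RPL36A, RPS10 and, by a smaller step, RPS27 rest on 697 controls that differ among themselves. That of RPS18 rests on libraries that hold its reads or lack them.

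In RAMOS against JURKAT 66 members had a higher effect (16.9% of all genes) and 0 a lower one (18.9%). The highest were RPL39 (0.99), RPS3A (0.62), RPS27A (0.56), RPS20 (0.54) and RPS23 (0.50). In the myeloid lines against RAMOS and JURKAT 0 were higher (12.4% of all genes) and 13 lower (9.47%). All named members were of the small subunit: RPS29 (-0.39), RPS15 (-0.38), RPS28 (-0.33), RPS19 (-0.27) and RPS16 (-0.24). THP1 and U937 differed for 6 members. RPS29 (0.57), RPS15 (0.49), RPL13 (0.38), RPLP2 (0.35) and RPS19 (0.30) had a higher effect in THP1, a count of 5 that lay near the share of all genes (5.96%). RPL13A (-0.24) alone, a count of 1, had a lower one (7.06% of all genes).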

How the results depend on the processing

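In RAMOS 72 to 74 members rose and none fell under every alternative run, and in 697 the number that rose ranged from 61 to 71 without a library. The small counts of JURKAT and THP1 were the least stable. With no filter on low counts, 1 member rose and 10 fell in JURKAT, 3 rose and 5 fell in THP1, and 2 fell in 697. Also with no filter, the effect was higher for 11 and lower for 5 members in THP1 against U937, and higher for 1 and lower for 21 in the myeloid lines against RAMOS and JURKAT. DESeq2 called 0 members higher in THP1. Without a library, 0 to 1 member rose and 1 to 8 fell in JURKAT, 0 to 5 rose and 0 to 6 fell in THP1, 4 to 18 rose in U937 and 1 to 3 fell in 697. Deviations of same-numbered libraries from their group means had correlations of -0.36 to 0.16. With 2 or 3 libraries in a group these cannot settle whether the numbers pair the libraries. With a replicate block 3 members rose in THP1 and 24 in U937. With offsets for coding G+C content, 9 members fell in NALM6 and 7 rose in THP1, and in NALM6 RPL5 (0.12), RPL7 (0.13), RPL22 (0.025) and RPL22L1 (0.063) turned positive. With TMM-scaled library sizes the summed CPM changed by 6823 in NALM6, 32082 in 697, -215 in THP1 and -1302 in U937, reversed in THP1 and U937. Leaving out libraries was not run for the differences between lines. The cause of these changes was not tested. Depths of 8.18 to 37.1 M counts limit the low members RPL21, RPL3L and RPS18.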

Other observations

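Among 24 listed pseudogenes of ribosomal protein genes, 11 to 14 were tested in each line. In NALM6, 5 of 11 rose (41.3% of all genes) and 2 fell (40.3%), and in 697, 6 of 12 rose (39.4%) and 2 fell (36.9%). In RAMOS, 3 of 14 rose (34.2%) and 1 fell (35.5%), with a median log2 fold change of 0.32 where the members had 0.24. In JURKAT 1 of 11 rose, in THP1 1 of 13 rose, and in U937 2 of 14 rose and 1 fell. Reads of a parent gene and its copy can be exchanged in counting, and the part this plays was not tested.

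Of 15 genes of mTOR signalling and the control of TOP mRNAs, 8 rose (41.3% of all genes) and 7 fell (40.3%) in NALM6. In the 697 line 6 rose (39.4%) and 7 fell (36.9%), and 8 rose (34.2%) and 5 fell (35.5%) in RAMOS. In JURKAT 2 rose and 2 fell, in THP1 4 rose and 5 fell, and in U937 5 rose and 4 fell.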
